A study of Mus musculus with 9 samples.

Results

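The mitochondrial ribosomal protein genes of mouse were followed across 9 polyA-selected RNA libraries from cultured cells exposed to brain-derived extracellular vesicles. Every row whose gene name starts with Mrpl or Mrps and a digit, and whose mean over the 9 libraries was at least 1 FPKM (fragments mapped, scaled to transcript length and library size), was a member. This gave 77 genes of 24318 rows, of which 10534 rows reached the same mean. All 77 rows with such a name passed the limit, so none lay just outside it, and the lowest inside were Mrpl17 at 9.56 FPKM and Mrpl35 at 10.6 FPKM. The libraries formed 3 groups of 3: SE-BDEV, CON-BDEV and Vehicle. From the series title, SE stands for status epilepticus, a prolonged seizure, and BDEV for brain-derived extracellular vesicles. The library names call the SE-BDEV group EV Pilo, the CON-BDEV group EV Saline and the Vehicle group CON. Dose, exposure time, and the species, strain and age of the animals that gave the vesicles are not given in the sources used here. The sample labels name the cell line N2a, a mouse neuroblastoma line, in all 9 libraries, whereas the study's design text names BV2, an immortalised mouse microglia line.

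The markers followed the design text. All 10 microglia and macrophage markers reached 1 FPKM, with a median of 111 FPKM, and 1 of 10 neuroblastoma and neuron markers did (Elavl4, 3.92 FPKM), while Mycn, Th and Dbh were listed at 0. No astrocyte marker of 5 reached 1 FPKM, and 2 of 6 oligodendrocyte markers (Cnp and Mbp) and 1 of 4 endothelial markers (Flt1) did. The summed microglia and macrophage markers ranged over 2670 to 3060 FPKM in SE-BDEV, 2730 to 2950 FPKM in CON-BDEV and 2700 to 2810 FPKM in Vehicle libraries, so the groups overlapped. Summed FPKM without the ferritin genes was 586000 to 613900 per library. The smallest values of 58 long genes put the depth at an estimated 28500000 to 32900000 fragments per library. At that depth the member with the fewest fragments, Mrpl41, had an estimated 460 per library and the median member 2600. These estimates take the longest coding transcript of each gene and may be too high. For Mrps26 that transcript has 4278 bases, while the RefSeq gene spans 1638. The labels do not say whether libraries of a group came from separate cultures, and the p-values therefore reflect only how these 9 libraries scatter, possibly for technical reasons.

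Mitochondria keep a ribosome of their own, which translates the few membrane proteins of the respiratory chain that mitochondrial DNA encodes. Its RNAs come from mitochondrial DNA, but every one of its proteins is encoded in the nucleus, made in the cytosol and imported. The mammalian particle is rich in protein: many subunits descend from those of bacterial ribosomes, and many others have no bacterial counterpart. The members fell into 50 large subunit proteins, of which 30 take the place of a bacterial protein and 20 are classed as specific to mitochondria, and 26 small subunit proteins, split into 16 and 10 in the same way. Mrps30 and Mrps18a carry small subunit names but sit in the large subunit and were counted there. Mrps18a and Mrps18b are relatives of bacterial S18 but do not take its place, and were counted as specific to mitochondria. Mrps36 is the remaining member. It bears the name of a small subunit protein, but is now known as a component of the alpha-ketoglutarate dehydrogenase complex.

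RefSeq promoter windows, from 250 bases before to 50 bases after each start on GRCm38.p6, were found for 68 of the 77 members. Not printed or searched were those of Mrpl4, Mrpl13, Mrpl15, Mrpl19, Mrpl38, Mrpl54, Mrps28, Mrps34 and Mrps35. Windows of 4 genes are shown 5′ to 3′ on the gene's own strand: the pair with the highest levels (Mrps21, chr3:95871465-95871764, minus strand; Mrpl12, chr11:120484387-120484686, plus strand), the member that passed the test in CON-BDEV (Mrpl52, chr14:54426659-54426958, plus strand), and a member that shares its start region with another member (Mrps11, chr7:78782881-78783180, plus strand). Capitals mark matches to the motifs searched.
Mrps21: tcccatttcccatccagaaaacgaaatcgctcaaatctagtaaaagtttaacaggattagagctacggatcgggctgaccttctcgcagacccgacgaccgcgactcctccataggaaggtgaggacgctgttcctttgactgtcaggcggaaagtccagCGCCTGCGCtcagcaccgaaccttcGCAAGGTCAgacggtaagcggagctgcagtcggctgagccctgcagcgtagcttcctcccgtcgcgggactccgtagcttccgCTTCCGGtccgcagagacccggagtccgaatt
Mrpl12: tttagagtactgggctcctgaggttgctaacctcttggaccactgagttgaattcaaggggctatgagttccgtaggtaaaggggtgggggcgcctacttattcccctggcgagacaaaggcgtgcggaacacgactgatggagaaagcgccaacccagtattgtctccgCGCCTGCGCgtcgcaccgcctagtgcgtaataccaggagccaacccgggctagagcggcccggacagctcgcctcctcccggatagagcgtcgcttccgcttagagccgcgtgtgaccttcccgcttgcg
Mrpl52: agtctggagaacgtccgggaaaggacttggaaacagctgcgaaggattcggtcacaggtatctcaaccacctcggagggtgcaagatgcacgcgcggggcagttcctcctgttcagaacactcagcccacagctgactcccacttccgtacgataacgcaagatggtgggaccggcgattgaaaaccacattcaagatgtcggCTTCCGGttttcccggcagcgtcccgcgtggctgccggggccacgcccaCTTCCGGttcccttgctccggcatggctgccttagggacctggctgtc
Mrps11: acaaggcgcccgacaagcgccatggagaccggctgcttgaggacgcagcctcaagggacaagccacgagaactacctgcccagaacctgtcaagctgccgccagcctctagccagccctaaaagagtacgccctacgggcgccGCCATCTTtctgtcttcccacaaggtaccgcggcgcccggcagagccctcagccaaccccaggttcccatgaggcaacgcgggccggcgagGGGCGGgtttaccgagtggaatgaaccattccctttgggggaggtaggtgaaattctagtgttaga
Both Mrps21 and Mrpl12 hold the nuclear respiratory factor 1 (NRF1) letters, starting 90 and 80 bases before the start. The Mrps21 window also holds an antioxidant response match 65 bases before and an ETS match 18 bases after the start. Mrpl52 has 2 ETS matches, the first beginning 47 bases before the start, and Mrps11 has a YY1 match 107 bases and an SP match 16 bases before it.

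A set of 7 motifs was searched on both strands. A gene counted if any of its windows held the letters. Members had 74 windows, coding genes at 1 FPKM or more 10197 and all coding genes 21263. The shares are therefore per gene and not per window, and a gene with more windows had more places for a match. The NRF1 letters GCGCANGCG stood in 16 of 68 members (23.5%), against 17.3% of the 7956 coding genes at 1 FPKM or more and 9.63% of all 17492 coding genes. The ETS letters CCGGAAG, the core read by GABPA, stood in 25 (36.8%, against 22.6% and 12.9%), and the YY1 letters AAGATGGC in 12 (17.6%, against 5.95% and 3.57%). The SP letters GGGCGG stood in 34 (50%, against 70.9% and 49.2%) and the E-box CACGTG, which MYC reads, in 5 (7.35%, against 12.5% and 8.91%). The antioxidant response letters TGACNNNGC, read by NRF2 (the product of Nfe2l2), stood in 13 (19.1%, against 17.3% and 14.8%). The NRF1, ETS and YY1 letters were each more frequent among members than in either background. For the antioxidant response letters, the members' share was close to that of coding genes at 1 FPKM or more. The ZNF143 letters ACTACAATT stood in none, against 0.993% and 0.577%. None of these motifs contains another, though matches may share bases. A match describes letters in the window and is no evidence of binding.

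Many members lie head to head with a neighbour. A divergent start within 1000 bases was found for 24 of the 68 members (35.3%), against 15% of coding genes at 1 FPKM or more and 8.48% of all coding genes. Mrpl46 and Mrps11, a large and a small subunit gene, form such a pair, with 42 bases between their starts. In the authors' mm9 coordinates, Mrpl46 spans chr7:85920227-85927975 and Mrps11 chr7:85928017-85937874. Their levels were alike, at 43.0 and 35.8 FPKM. Mrps12 faces Sars2, the mitochondrial seryl-tRNA synthetase, 147 bases away, at 67.2 FPKM against 11.4 FPKM. Mrpl49, at 23.9 FPKM, faces Fau, which encodes a cytosolic ribosomal protein, 192 bases away and at 1396 FPKM. The members were spread over 17 chromosomes, with the most, 10, on chromosome 11.

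The members were expressed well above the typical gene. Their median over the 9 libraries was 54.3 FPKM (quartiles 35.9 and 93.4 FPKM), against 16.3 FPKM for all genes at 1 FPKM or more, and 73 of the 77 lay above that background median. Levels exceeded 50 FPKM for 42 members and 100 FPKM for 16, and 7 were below 20 FPKM. Large subunit proteins with a bacterial counterpart in place had a median of 74.1 FPKM and the mitochondria-specific ones 44.6 FPKM. In the small subunit these medians were 62.6 and 48.6 FPKM, so in each subunit the proteins with a counterpart had the higher median, with wide overlap between the classes.

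Mrps21, the counterpart of the bacterial small subunit protein S21, was the most abundant member in all 9 libraries. Its level was 388.9, 378.8 and 425.9 FPKM in SE-BDEV, 444.9, 376.4 and 392.6 FPKM in CON-BDEV, and 412.3, 408.5 and 419.5 FPKM in Vehicle libraries. All 3 groups overlapped. Mrpl12, the stalk protein that recruits translation factors and has also been reported to bind the mitochondrial RNA polymerase in human cells, ranked next in every library, with a mean of 210.6 FPKM. The next 3, Mrpl52 (179.4 FPKM), Mrps18c (172.0 FPKM) and Mrpl34 (167.9 FPKM), changed places between libraries, within ranks 3 to 8. At the low end stood Mrpl17, Mrpl35, Mrpl57 (11.2 FPKM), Mrps25 (12.2 FPKM) and Mrpl19 (18.5 FPKM), and the highest level was 42.4 times the lowest. Per length, then, the mRNAs of a particle that holds most of its proteins in single copies differed widely in level.

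The genes with unusual names sat inside the same range. The 3 S18 relatives are Mrps18c and Mrps18b of the small subunit and Mrps18a of the large subunit. Their means were 172.0 FPKM for Mrps18c, 125.2 FPKM for Mrps18b and 144.1 FPKM for Mrps18a, so each was above 100 FPKM. Mrps30 averaged 32.2 ± 2.25 FPKM in SE-BDEV, 31.4 ± 2.55 FPKM in CON-BDEV and 33.9 ± 2.02 FPKM in Vehicle libraries (SD, n = 3 each). Mrps36 averaged 75.1 ± 4.97 FPKM in SE-BDEV, 77.5 ± 3.92 FPKM in CON-BDEV and 72.0 ± 2.02 FPKM in Vehicle libraries (SD, n = 3 each). Neither passed the test in any comparison.

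**Figure D1:**
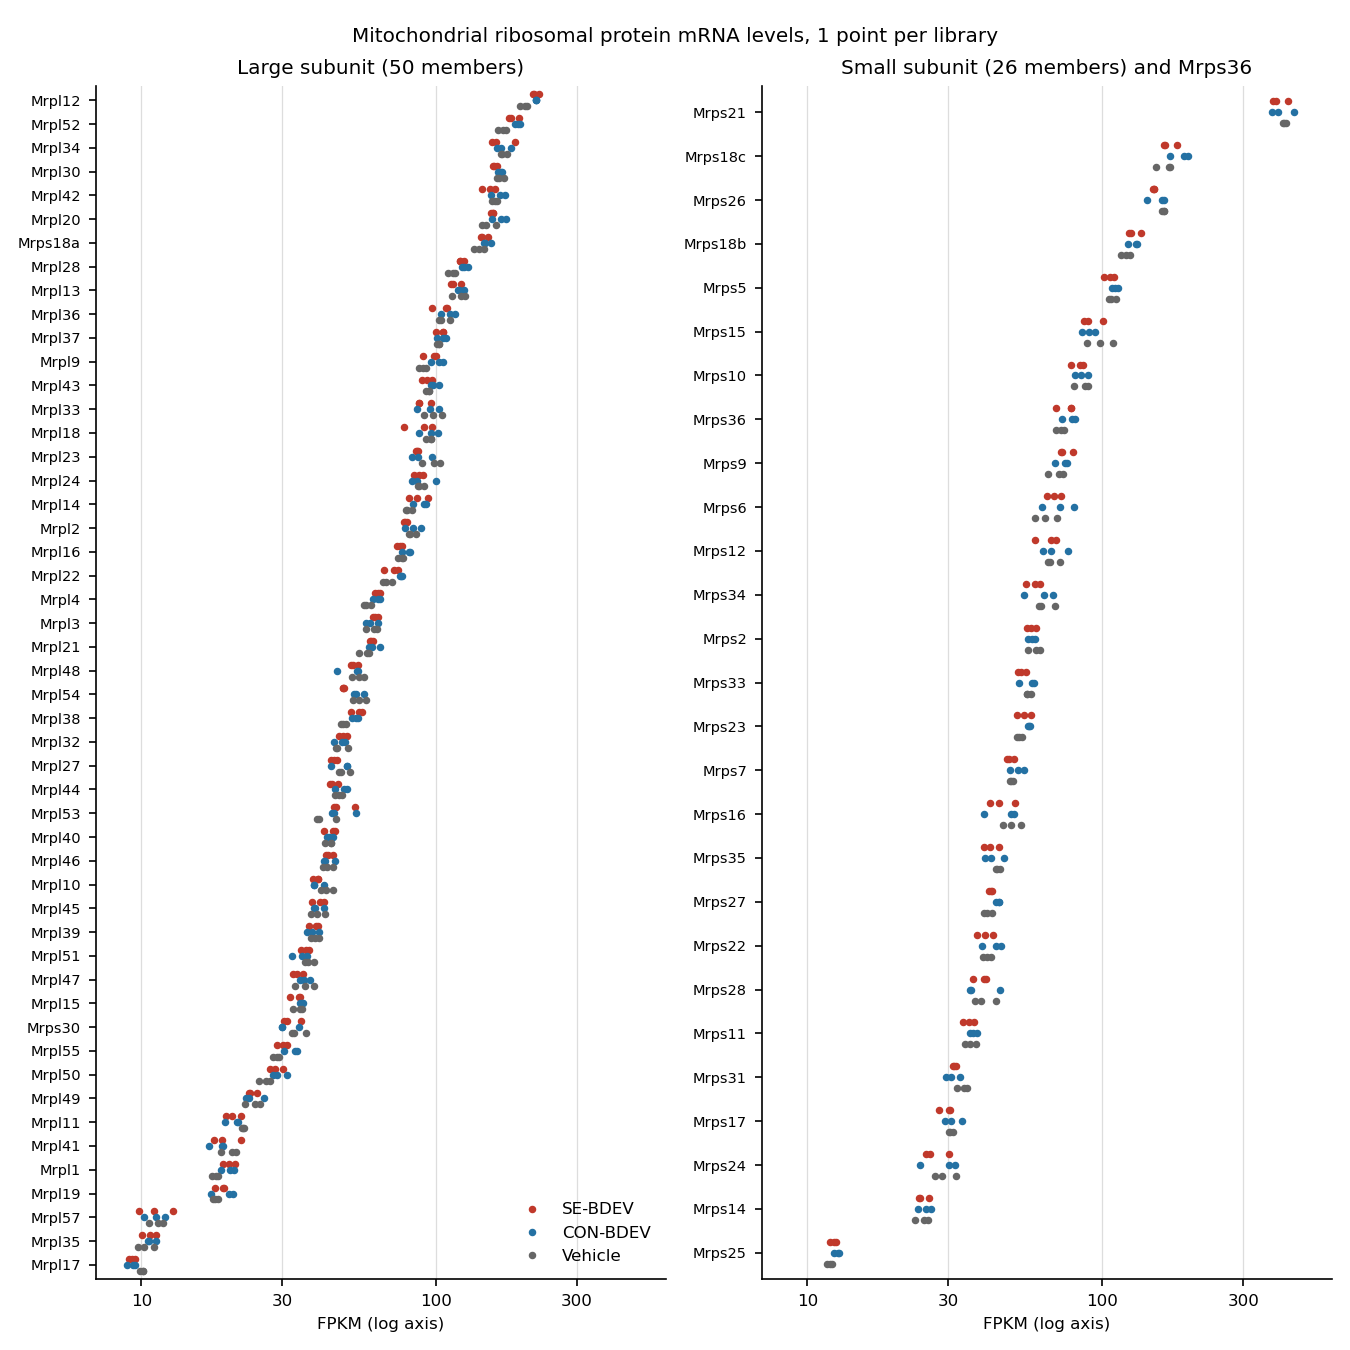
Level of each member on a log axis in FPKM, 1 point per library, with SE-BDEV, CON-BDEV and Vehicle drawn in separate rows from top to bottom for each gene; the left panel holds the 50 large subunit genes and the right panel the 26 small subunit genes and Mrps36. Levels run over a 42.4-fold range, while the 9 points of a gene stay close together.

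Across libraries the members varied little. The coefficient of variation over all 9 libraries had a median of 5.14% for members, against 6.43% for all genes at 1 FPKM or more. It was lowest for Mrpl30 (2.68%) and highest for Mrps24 (10.1%) and Mrpl53 (10.6%). Within groups, the median SD on the log2 scale was 0.0632 for members and 0.0727 for all genes. At matched levels the members were not steadier: between 50 and 100 FPKM, 26 members had a median SD of 0.0683 and the 1024 genes of that range 0.0586.

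The summed level of all 77 members was 5549, 5573 and 5607 FPKM in SE-BDEV, 5753, 5784 and 5712 FPKM in CON-BDEV, and 5613, 5482 and 5681 FPKM in Vehicle libraries. The 3 CON-BDEV sums lay above all others, and the SE-BDEV sums lay inside the Vehicle range. As a share of each library's summed FPKM without the ferritin genes, the members made up 0.943% ± 0.0104 in SE-BDEV, 0.949% ± 0.0161 in CON-BDEV and 0.941% ± 0.00781 in Vehicle libraries (SD, n = 3 each), and these shares overlapped. In RNA of whole cultures, fewer cells of a type and less RNA per cell cannot be told apart. The ratio of the small to the large subunit sum averaged 0.559 ± 0.00415 in SE-BDEV, 0.559 ± 0.0103 in CON-BDEV and 0.573 ± 0.00636 in Vehicle libraries (SD, n = 3 each). CON-BDEV ratios (0.551 to 0.571) overlapped those of Vehicle (0.569 to 0.581), while SE-BDEV ratios (0.554 to 0.562) lay below them. These ratios were not tested.

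**Figure D2:**
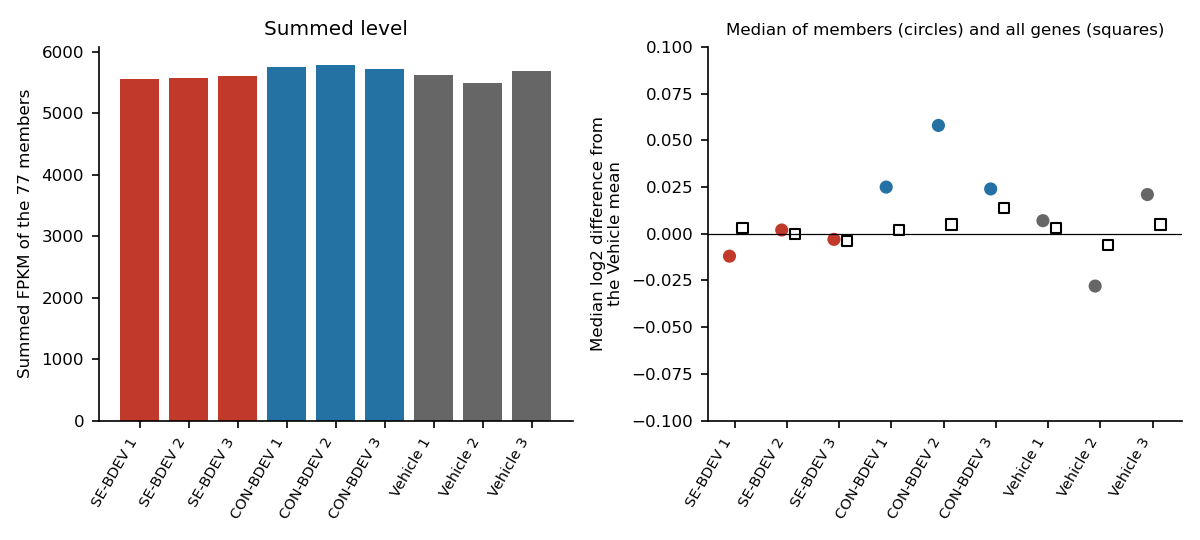
Left, summed FPKM of the 77 members in each of the 9 libraries, coloured by group; right, the median over members (filled circles) and over all genes kept (open squares) of the log2 difference from the Vehicle mean, 1 pair per library. The 3 CON-BDEV medians lie at 0.024 to 0.058, the SE-BDEV medians at -0.012 to 0.002, and the Vehicle medians at -0.028 to 0.021.

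The first comparison set SE-BDEV against Vehicle, to ask what vesicles from status epilepticus brain did to these genes. Limma on log2(FPKM + 1), with Benjamini-Hochberg adjustment over all genes kept and a threshold of 0.05, called 2 of the 77 members, 1 in each direction, against 11.9% of the 10535 genes tested (6.76% higher and 5.14% lower). Mrpl38 rose and Mrpl54 fell. Both are mitochondria-specific large subunit proteins, and Mrpl38 belongs to the central protuberance, the crown of that subunit. The median log2 fold change over members was -0.018, with 32 of 77 above 0, against -0.001 over all genes.

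Mrpl38 was at 56.1, 51.6 and 54.8 FPKM in SE-BDEV libraries and at 48.2, 49.2 and 47.7 FPKM in Vehicle libraries, with no overlap. Its log2 fold change was 0.16 (SE 0.042, limma adjusted p = 0.0382). Mrpl54 was at 48.1, 48.7 and 48.2 FPKM in SE-BDEV libraries and at 52.3, 54.8 and 57.7 FPKM in Vehicle libraries. All SE-BDEV values lay below all Vehicle values, and the 3 were within 1 FPKM of each other. Its log2 fold change was -0.18 (SE 0.043, limma adjusted p = 0.0257). Neither call was firm: Mrpl38 passed in 6 of 14 other analyses (adjusted p 0.0274 to 0.377) and Mrpl54 in 8 of 14 (adjusted p 0.022 to 0.413). For each, the highest value was the q-value of the authors' deposited table, in which 0 of 77 members had q under 0.05, against 5.36% of the 11505 genes it tested. Mrpl38 was lost without SE-BDEV replicate 1 or 3 or without any 1 Vehicle replicate, and Mrpl54 without SE-BDEV replicate 1 or 2 or Vehicle replicate 2 or 3.

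The other members at the ends of the range did not pass. Mrpl53 had the highest log2 fold change, 0.19 (SE 0.073, limma adjusted p = 0.122), with 45.7, 44.9 and 52.9 FPKM in SE-BDEV libraries and 39.9, 39.4 and 45.7 FPKM in Vehicle libraries, which overlapped. The locus the authors' file gives for it, chr6:83051510-83059926 on mm9, is 10.2 times as long as the RefSeq gene, so its values may hold reads of neighbouring genes; 6 other members, Mrpl19, Mrpl24, Mrpl41, Mrpl49, Mrps23 and Mrps25, have loci over 1.5 times as long as theirs. Mrpl1, of the flexible L1 stalk, had 19.8 ± 0.925 FPKM in SE-BDEV and 17.8 ± 0.416 FPKM in Vehicle libraries (SD, n = 3 each; log2 fold change 0.15, limma adjusted p = 0.0739). Mrpl23, whose bacterial counterpart lies at the exit of the peptide tunnel, had 86.2 ± 0.737 FPKM in SE-BDEV and 96.7 ± 6.89 FPKM in Vehicle libraries (SD, n = 3 each; log2 fold change -0.16, limma adjusted p = 0.0685). For Mrps34, a small subunit protein, the log2 fold change was -0.12 (SE 0.058, limma adjusted p = 0.201).

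At an unadjusted limma p under 0.05, 8 members were higher (10.4%, against 14% of all genes) and 6 lower (7.79%, against 13.4%), together 18.2%, against 27.4%. SE-BDEV and Vehicle values did not overlap for 8 members that were higher (10.4%, against 16.5% of all genes) and 11 that were lower (14.3%, against 16.3%), together 24.7%, against 32.8%. Each of these shares was below that of all genes. The 95% intervals of all 77 log2 fold changes lay between -0.28 and 0.36, and 71 of them inside a 1.2-fold change either way. All 77 lay inside 1.3-fold.

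The second comparison set CON-BDEV against the same Vehicle libraries, so the 2 comparisons are not independent. Limma called 1 of 77 members, higher, against 5.67% of 10535 genes (3.81% higher and 1.86% lower). By the q-values of the authors' deposited table the count was 0 of 77, against 4.32% of 11502 genes. The member that limma called was Mrpl52, a mitochondria-specific large subunit protein and the third most abundant member. Mrpl52 was at 184.2, 189.5 and 191.5 FPKM in CON-BDEV libraries and at 161.8, 172.8 and 168.8 FPKM in Vehicle libraries, and the groups did not overlap. Its log2 fold change was 0.17 (SE 0.04, limma adjusted p = 0.047). The call stood in 4 of 14 other analyses (adjusted p 0.0297 to 0.517) and was lost on leaving out CON-BDEV replicate 2 or 3 or any 1 Vehicle replicate. In SE-BDEV libraries Mrpl52 was at 175.7, 191.0 and 179.0 FPKM, also above every Vehicle library, with a log2 fold change against Vehicle of 0.12 that did not pass (limma adjusted p = 0.117).

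At an unadjusted limma p under 0.05, 16 members were higher (20.8%, against 13.9% of all genes) and 0 lower (against 9.63%), which in either direction is 20.8% against 23.5%. CON-BDEV and Vehicle values did not overlap for 17 members that were higher (22.1%, against 16.6% of all genes) and 2 that were lower (2.6%, against 12.7%), together 24.7%, against 29.3%. On these counts, unlike that of adjusted calls, the members' shares were above those of all genes in the higher direction and below in the lower. The median log2 fold change was 0.018, with 47 of 77 members above 0 and 0.005 over all genes, but it was -0.02 after quantile normalization, so the direction of the members as a set depended on the scaling. Mrpl53 (0.18), Mrps18c (0.18) and Mrpl55 (0.17) had the highest log2 fold changes, with limma adjusted p of 0.212, 0.134 and 0.0789. Mrpl12 had 217.4 ± 0.874 FPKM in CON-BDEV and 198.2 ± 5.87 FPKM in Vehicle libraries (SD, n = 3 each), and did not pass (log2 fold change 0.13, limma adjusted p = 0.0736). At the low end, Mrps15, Mrpl41 and Mrpl23 had -0.13, -0.12 and -0.12 (limma adjusted p 0.323, 0.263 and 0.323). The 95% intervals lay between -0.29 and 0.37 for all 77 members, inside 1.2-fold for 68 and inside 1.3-fold for all.

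**Figure D3:**
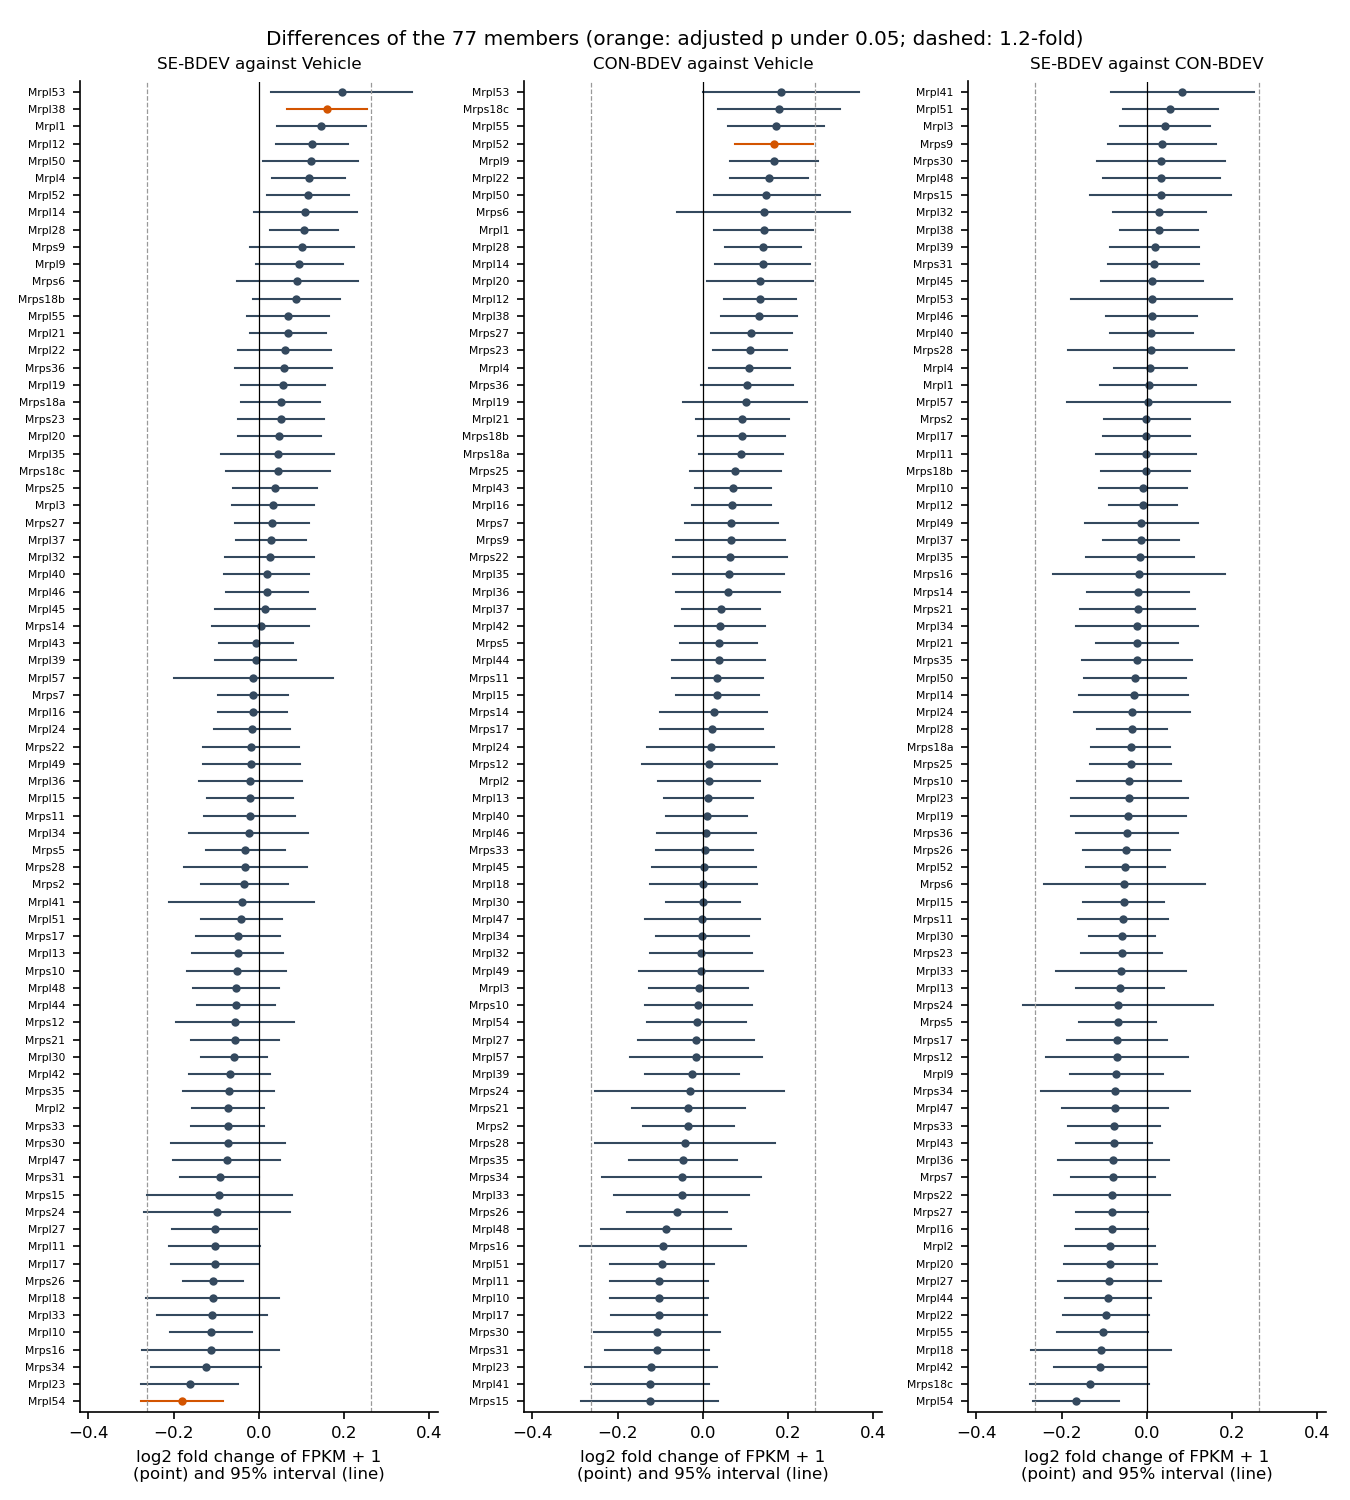
Log2 fold change of FPKM + 1 (point) with its 95% interval (line) for each of the 77 members in 3 comparisons, ordered within each panel; dashed lines mark a 1.2-fold change and orange marks a limma adjusted p under 0.05. All intervals lie inside 1.3-fold, and the orange points are Mrpl38 and Mrpl54 in SE-BDEV against Vehicle and Mrpl52 in CON-BDEV against Vehicle.

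The third comparison, of SE-BDEV with CON-BDEV, asked whether status epilepticus changed what the vesicles did, and was fitted on all 9 libraries after the tables were joined. Limma called 0 of 77 members and 0% of the 10532 genes tested. At an unadjusted limma p under 0.05 there were 2 members, both lower in SE-BDEV, against 4.83% of all genes (509) in either direction and 3.59% in the lower one; no other tool was run on this pair. They were Mrpl54 and Mrpl42, each a mitochondria-specific large subunit protein. Mrpl54 was at 48.1, 48.7 and 48.2 FPKM in SE-BDEV libraries and at 57.1, 53.5 and 52.5 FPKM in CON-BDEV libraries, with no overlap and a log2 fold change of -0.17 (SE 0.046, limma adjusted p = 0.991). Mrpl42 was at 157.7, 142.7 and 151.8 FPKM in SE-BDEV libraries and at 170.8, 153.3 and 164.0 FPKM in CON-BDEV libraries, which overlapped (log2 fold change -0.11, limma adjusted p = 0.999). SE-BDEV values lay wholly below CON-BDEV values for 6 members, or 7.79%, against 5.19% of all genes, and wholly above for 0, against 2.74%, together 7.79% against 7.94%. The median log2 fold change was -0.037, with 19 of 77 members above 0, against -0.004 over all genes. The other ends of the range were Mrps18c at -0.13 and Mrpl41, Mrpl51 and Mrpl3 at 0.08, 0.05 and 0.04 (limma adjusted p 0.999 each). The 95% intervals of all 77 lay between -0.29 and 0.25, and 73 lay inside a 1.2-fold change either way.

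**Figure D4:**
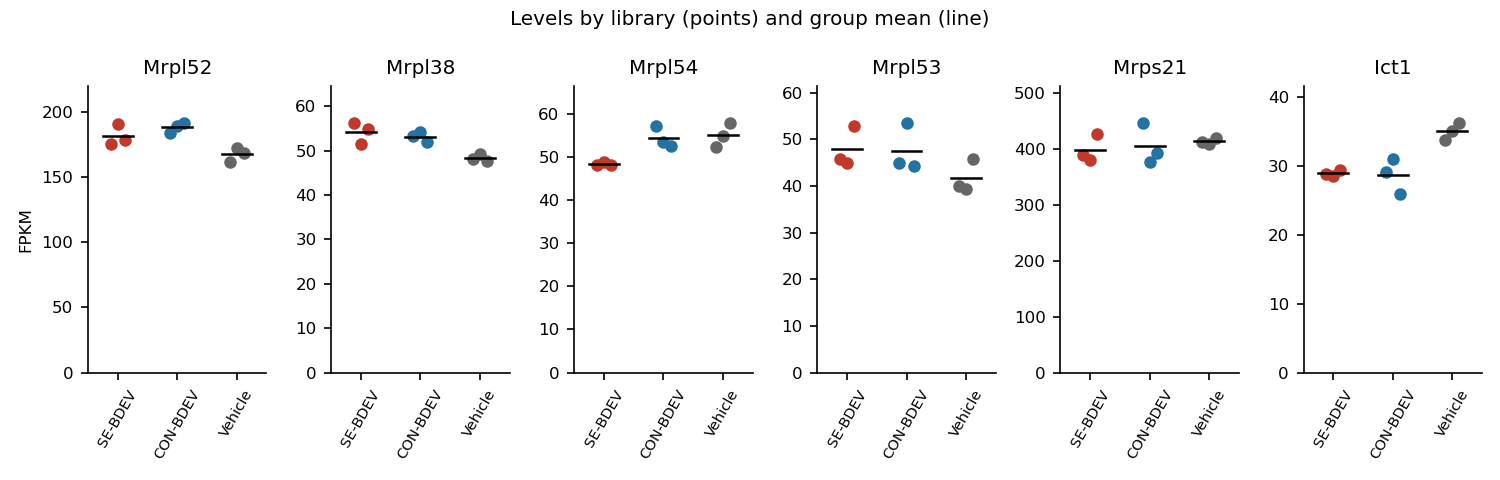
FPKM in each library (points) and group mean (line) of the 3 members that passed in a comparison, of Mrpl53, Mrps21 and Ict1, from SE-BDEV through CON-BDEV to Vehicle; every axis starts at 0. Ict1 and Mrpl54 are lower in all 3 SE-BDEV libraries than in any Vehicle library, and Mrps21 overlaps in all groups.

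The same fits gave much larger differences outside the members. The targets of the oxidative stress factor NRF2, Nqo1, Gclm, Slc7a11 and Hmox1, all rose in both vesicle groups, with log2 fold changes of 1.77 to 2.62 in SE-BDEV and 1.65 to 2.49 in CON-BDEV (limma, adjusted p of 0.000301 or less and 0.0114 or less). In the authors' deposited table Gclm, Slc7a11 and Hmox1 passed in both, and Nqo1 in neither (q = 0.605 in SE-BDEV and q = 0.599 in CON-BDEV). Among the members the largest was 0.19.

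Proteins of the particle that carry other names were counted apart. Of 7 listed, 6 were in the tables, with a median of 64.6 FPKM. Of these 6, 1 passed in limma in each comparison with Vehicle, Ict1. Over all genes 11.9% passed in SE-BDEV and 5.67% in CON-BDEV, so 1 gene of so short a list says little about the list. Ict1 encodes a peptidyl-tRNA hydrolase built into the large subunit, which can release peptides from stalled ribosomes. It was at 28.8, 28.5 and 29.3 FPKM in SE-BDEV libraries, at 29.0, 31.0 and 25.8 FPKM in CON-BDEV libraries, and at 33.8, 35.0 and 36.1 FPKM in Vehicle libraries. Every vesicle library lay below every Vehicle library. Ict1 fell by 0.27 on the log2 scale in SE-BDEV (SE 0.04, limma adjusted p = 0.00376). That call stood in all 13 other limma fits (adjusted p 0.00303 to 0.0223). In CON-BDEV Ict1 fell by 0.28 (SE 0.066, limma adjusted p = 0.0412). That call stood in 6 of 13 other limma fits (adjusted p 0.016 to 0.14). It was lost, among others, without CON-BDEV replicate 3 or any 1 Vehicle replicate. Unlike the 14 other analyses of the called members, these 13 do not count the authors' q-values. By the authors' deposited table Ict1 passed in neither comparison, with q-values of 0.12 in SE-BDEV and 0.151 in CON-BDEV. Chchd1 (96.6 FPKM), a small subunit protein, and Aurkaip1 did not pass.

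The machinery around the ribosome was expressed at lower levels than the members, except import. Median levels were 16.1 FPKM for 16 translation factors, 15.9 FPKM for assembly factors, 12.6 FPKM for 20 mitochondrial tRNA synthetases, 25.1 FPKM for genes of mitochondrial DNA transcription and RNA processing, 18.2 FPKM for regulators of mitochondrial biogenesis and 79.1 FPKM for 25 import genes. The most abundant gene of each list was the elongation factor Tufm (145.0 FPKM), the protease subunit Afg3l2 (87.6 FPKM), the threonyl-tRNA synthetase Tars2 (65.1 FPKM), the mRNA-stabilising protein Slirp (156.0 FPKM), Yy1 (43.8 FPKM) and the import motor Hspa9 (442.5 FPKM), and none of these passed in any comparison. The 13 mRNAs that mitochondrial DNA encodes, the products this ribosome translates, were not analysed here.

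The related lists were read beside the same shares of all genes, in SE-BDEV against Vehicle 11.9% called and 27.4% at an unadjusted p under 0.05. In that comparison, 1 of 16 translation factors passed, lower: Trmu, which thiolates mitochondrial tRNAs (7.77 ± 0.19 FPKM in SE-BDEV and 9.19 ± 0.488 FPKM in Vehicle libraries, SD, n = 3 each; log2 fold change -0.22, limma adjusted p = 0.0294). Of 24 assembly factors tested, 1 passed, lower: Malsu1, which guards the nascent large subunit against premature joining. Malsu1 was at 16.1, 15.8 and 14.8 FPKM in SE-BDEV libraries and at 23.2, 18.8 and 18.7 FPKM in Vehicle libraries (log2 fold change -0.35, SE 0.077, limma adjusted p = 0.02). The groups did not overlap, and 1 Vehicle library stood above its group. In the authors' deposited table Malsu1 also passed, with q = 0.0275. Of 16 transcription and RNA genes, 1 passed, higher: Tfb2m, an initiation factor of the mitochondrial RNA polymerase (log2 fold change 0.19, limma adjusted p = 0.0228). None of 20 synthetases, 9 regulators and 25 import genes passed in limma, with 3, 1 and 4 at an unadjusted p under 0.05. At that limit 5 of 24 assembly factors were higher and 4 lower, and 0 of 16 translation factors were higher and 5 lower. Of the 16 transcription and RNA genes, 3 were higher and 0 lower. Among all genes 14% were higher and 13.4% lower. Without Vehicle replicate 1 or 2, 2 related genes passed in place of 4, counting Ict1, and both were lower.

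In CON-BDEV against Vehicle, where 5.67% of all genes were called and 23.5% had an unadjusted p under 0.05, Taco1, a translational activator of the mitochondrial cytochrome oxidase subunit I, fell by 0.21 on the log2 scale (12.4 ± 0.632 FPKM in CON-BDEV and 14.5 ± 0.0667 FPKM in Vehicle libraries, SD, n = 3 each; limma adjusted p = 0.0476), as 1 of 16 translation factors. Fars2, the phenylalanyl-tRNA synthetase, rose as 1 of 20 synthetases (log2 fold change 0.37, limma adjusted p = 0.0497). In the authors' deposited table Fars2 passed in both comparisons, with q = 0.0129 in SE-BDEV and q = 0.00446 in CON-BDEV. In the same deposited table of the authors, Lars2, the leucyl-tRNA synthetase, passed in CON-BDEV with q = 0.00446 and not in SE-BDEV (q = 0.892), while its limma adjusted p in CON-BDEV was 0.0677. Myc, a regulator whose mean of 0.884 FPKM was below the limit for the limma fit, passed in the authors' deposited table in both comparisons, with q = 0.00196 in SE-BDEV and q = 0.00245 in CON-BDEV. Esrra, a nuclear receptor that drives mitochondrial genes, rose as 1 of 9 regulators (0.21, limma adjusted p = 0.0323), and Timm9, a chaperone of the intermembrane space, as 1 of 25 import genes (0.25, limma adjusted p = 0.0273). None of 24 assembly factors and 16 transcription and RNA genes passed in limma, with 3 and 4 at an unadjusted p under 0.05. At that limit 5 of 20 synthetases were higher and 3 lower, and 1 of 16 translation factors was higher and 3 lower. Of 9 regulators 2 were higher, and of 25 import genes 6 were higher, with 0 lower in either list. Among all genes 13.9% were higher and 9.63% lower. The limma calls of Taco1, Fars2, Esrra and Timm9 in CON-BDEV were lost on leaving out CON-BDEV replicate 3 or any 1 Vehicle replicate. Between SE-BDEV and CON-BDEV no gene of these lists passed.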

How the data were processed

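Libraries were polyA-selected with a directional kit, per the labels' protocols. Reads were processed with TopHat2 and Cuffdiff against mm9, per the submitters' processing notes; versions, annotation and strand setting are not given in the sources used here. The deposited values are FPKM per gene and library, scaled by the authors within each of 2 tables, and Cuffdiff comparisons with group mean FPKM, log2 fold change, a test score, p-value and q-value, per the file headers. No counts were used, so no count test was run. The tables share the Vehicle libraries, which differ by constant factors (1.00012 to 1.00078). They were joined by these factors for the comparison of SE-BDEV with CON-BDEV. Fth1 in both tables and Ftl1 in the CON-BDEV table carry the status HIDATA in the authors' Cuffdiff comparisons and were left out.

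Limma 3.58.1 (R 4.3.3) was fitted to log2(FPKM + 1) with group as the only term and a mean-variance trend, on genes averaging 1 FPKM or more, 2-sided, with Benjamini-Hochberg adjustment over all genes kept. A fold change on this scale understates that of low genes. With 3 against 3 libraries an exact permutation test cannot go below p = 0.1 and was not used. The script was tested on simulated data. Members and lists were chosen with earlier results of these data known. Named were all members past the threshold, the 3 highest and 3 lowest log2 fold changes per comparison, the 5 highest and 5 lowest levels, the S18 family, Mrps30, Mrps36 and Mrpl12, and from the related lists genes past the threshold and the most abundant; other genes were named after their values were seen. How reads shared with near-identical copies were counted is not given in the sources used here. Alternatives were the pseudocount, the filter, quantile normalization, blocks, leaving out libraries, 1 fit of all libraries and the authors' q-values. RefSeq promoter windows (GRCm38.p6) were matched by symbol.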

Additional observations from a re-analysis of the deposited data

How the results depend on the processing

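In CON-BDEV against Vehicle, limma called 597 genes, 401 higher and 196 lower. The count was 112 with no filter on low values, 364 with the replicate number as a block, 275 with a block for the number in the library name, and 84 to 1067 on leaving out 1 library (110, 84 and 121 without Vehicle replicate 1, 2 or 3, and 1067, 905 and 133 without CON-BDEV replicate 1, 2 or 3). The number in the library name is 1 for Vehicle replicates 1 and 2 and for replicate 1 of CON-BDEV and of SE-BDEV. For all other libraries it is 2, so it is unevenly spread over the groups and partly bound to them. What it marks is not given in the sources used here. Quantile normalization split the calls into 301 higher and 249 lower. The 1 member called became 0 with no filter, under quantile normalization, under the replicate block, under the library-name block and by the authors' q-values, 3 in 1 fit of all 9 libraries (Mrpl52, Mrpl12 and Mrpl28), and 0 to 4 on leaving out a library; without CON-BDEV replicate 2 the 1 called was Mrpl14 and not Mrpl52. The count of 5 related genes became 0 with no filter and under both blocks, 3 under quantile normalization and by the authors' q-values, and 0 to 8 on leaving out a library. The genes passing by the authors' q-values were Fars2, Lars2 and Myc, of which only Fars2 was among the 5. The median of members, 0.018, became -0.02 under quantile normalization, and 0.017 to 0.041 on leaving out a library.

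In SE-BDEV against Vehicle, the 1253 genes became 726 with no filter, 830 in 1 fit, 617 by the authors' q-values, and 501 to 1311 on leaving out a library (501, 601 and 678 without Vehicle replicate 1, 2 or 3). Of the 2 members none stayed with no filter, where 1 other, Mrps26, passed; 4 passed under quantile normalization (both, with Mrpl23 and Mrps26), 0 by the authors' q-values and 0 to 2 on leaving out a library. Under the replicate block 2 passed, Mrpl54 and Mrpl53, and Mrpl38 did not. The 4 related genes became 2 with no filter, 7 under the replicate block, 8 under the library-name block, and 2 to 6 on leaving out a library. The median of members stayed between -0.03 and -0.006 on leaving out a library. Between SE-BDEV and CON-BDEV, 0 to 1 genes and 0 members were called on leaving out a library, and the median, -0.037, became -0.019 under quantile normalization and -0.046 to -0.02 on leaving out a library. The causes were not tested. Of 272 other values of the named members, 243 kept direction and side of the threshold, 24 lost it, 5 gained it and none changed sign. Alternatives for the related lists were chosen after seeing the data.

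In limma, Ict1 in CON-BDEV did not pass under the replicate block (adjusted p = 0.0695) or the library-name block (adjusted p = 0.0834), while in SE-BDEV it passed under both (0.00873 and 0.0068). Mrpl38 in SE-BDEV had a limma adjusted p of 0.0649 under the replicate block. Mrpl52 in CON-BDEV did not pass under the replicate block or the library-name block. The replicate numbers did not pair the libraries: same-numbered libraries correlated at -0.264 to 0.194 (mean -0.0397), 3 of 9 pairs exceeded 0.1, and 3 of 9 libraries correlated best with their own number. Depth is known only as an estimate, and with 3 libraries a group, changes well under 1.2-fold are at the edge of what these tests call.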
